A study of Rattus norvegicus with 18 samples.

Results

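The 10 genes described here encode collagen chains and the small leucine-rich proteoglycans that coat collagen fibrils: Col1a1, Col1a2, Col3a1, Col5a1, Col5a2, Col6a1, Dcn, Bgn, Lum and Ogn. They were found as the probe sets whose platform annotation gives 1 of these symbols, which are 17 probe sets for 10 of the 10411 genes named on the array. Each of 5 genes had 1 probe set, 4 genes had 2, and Ogn had 4. The genes were selected on measured values: earlier results of the same arrays had named Col1a1, Col1a2 and Col3a1 as lower in the oculomotor nucleus at 30 than at 6 months, and Col6a1 as lower in the spinal cord at 18 than at 6 months. Values of those 2 comparisons are therefore given as a description, with no p value printed. The members that passed the threshold there are stated, but this follows in part from the choice of genes, and nothing is read from it. Other comparisons use some of the same arrays, as stated beside them.

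The study profiled 2 rat tissues at 3 ages on Affymetrix RA230 arrays: the oculomotor nucleus, the midbrain cell group that drives most eye muscles, and the spinal cord, each at 6, 18 and 30 months. The strain is given as F344BN in the description of 2 samples only, and no sample carries a treatment or a mutant allele in the labels. There were 18 arrays in 6 groups of 3, and each array held RNA pooled from 4 animals, so the spread between arrays is a spread between pools. The labels give 3 replicates per group, and the design text mentions 4. Whether the pools of the 2 tissues came from the same animals is not given, nor is the level of the cord.

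Type I collagen is a triple helix of the Col1a1 and Col1a2 products, type III collagen is made of the Col3a1 product alone, and type V collagen, with chains from Col5a1 and Col5a2, sits inside type I fibrils and sets where they begin. Type VI collagen, to which Col6a1 contributes a chain, forms beaded microfilaments and is not itself fibrillar. Decorin (Dcn), biglycan (Bgn), lumican (Lum) and osteoglycin (Ogn) bind fibrils or growth factors and shape fibril width. In brain and cord this matrix is made mostly by fibroblasts of the meninges and of the sheaths around vessels and nerve roots, while neurons and glia make little of it.

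RefSeq promoter windows in the rat build GRCr8, from 250 bases before to 50 bases after the annotated start, were found for 6 of the 10 genes. They were searched on both strands for CCAAT, the letters of a CAAT box, which occur in 37.5% of all 33469 windows of this length. The TATA box letters TATAAA (14.2% of windows) and the GC box letters GGGCGG (33.1%) were searched likewise. Among the 6 genes CCAAT occurred in 2 windows (Col1a2 and Lum), TATAAA in 2 (Col1a2 and Ogn) and GGGCGG in 1 (Col5a1), while Col5a2 and Col6a1 held none of these letters. The windows of Col1a2 and Ogn are shown because their probe sets had large tissue differences, and that of Col5a2 because its differences were among the smallest. Each runs 5′ to 3′ on its gene's strand, and capitals mark the motifs: in Col1a2, chr4:33518307-33518606 on the plus strand, ATTGG is CCAAT read on the other strand. In Ogn, chr17:15258946-15259245 on the minus strand, the capitals hold 2 overlapping matches, 1 on each strand. Col5a2 is chr9:55090102-55090401 on the minus strand.
Col1a2: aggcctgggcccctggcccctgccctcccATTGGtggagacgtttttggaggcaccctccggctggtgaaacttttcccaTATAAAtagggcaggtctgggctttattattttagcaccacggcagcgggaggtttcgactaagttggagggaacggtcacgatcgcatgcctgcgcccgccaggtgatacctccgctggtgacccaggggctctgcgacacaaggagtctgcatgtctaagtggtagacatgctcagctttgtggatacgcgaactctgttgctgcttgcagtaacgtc
Ogn: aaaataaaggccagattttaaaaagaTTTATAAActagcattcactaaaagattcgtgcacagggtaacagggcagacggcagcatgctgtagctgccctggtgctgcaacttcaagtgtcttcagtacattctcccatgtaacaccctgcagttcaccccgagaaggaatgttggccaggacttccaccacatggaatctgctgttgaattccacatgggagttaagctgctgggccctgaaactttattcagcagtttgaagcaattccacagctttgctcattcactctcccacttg
Col5a2: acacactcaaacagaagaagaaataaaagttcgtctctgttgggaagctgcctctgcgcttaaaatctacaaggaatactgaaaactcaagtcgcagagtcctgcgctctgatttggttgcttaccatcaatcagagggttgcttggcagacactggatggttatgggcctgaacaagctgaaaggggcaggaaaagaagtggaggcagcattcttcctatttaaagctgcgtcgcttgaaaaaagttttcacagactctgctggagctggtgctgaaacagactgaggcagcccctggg

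Signals are Microarray Suite 5.0 intensities in arbitrary units, rescaled to a common mean, and values of different probe sets cannot be compared with each other. Signals under 66.4 were set to 66.4 before taking log2. Probe sets with a mean over the 18 arrays above a signal of 176 were tested, 9482 in all. Of the 17 member probe sets 15 were tested, with at least 1 for each gene. The weakest of these was an Ogn probe set (1385248_a_at, mean log2 signal 7.56), and the strongest left out was a Col5a1 probe set (1369955_at, 6.61). For 7 of the 15 the mean over oculomotor arrays alone was below the filter, so these entered through their cord signal. They were both Col1a1 probe sets, Col1a2 1387854_at, Col3a1, Lum, Ogn 1383263_at and Ogn 1385248_a_at. Their adjusted p values between the tissues, given below, are of probe sets that a high cord signal let in. For the other 8 the mean passed in both tissues.

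The arrays had median signals of 252 to 275 and correlated with each other at 0.890 to 0.985. The first principal component of the deviations from group means held 27.1% of their variance. The 4 arrays with the lowest scores on it, -16.6 to -12.1, were taken as standing apart. They were oculomotor 30-month replicate 3 and cord 6-month replicate 1, 18-month replicate 3 and 30-month replicate 3. Oculomotor 30-month replicate 2 had the highest score, 14.2, and was not among them. Cord 6-month replicates 1 and 2 and 18-month replicate 2 were rich in skeletal muscle transcripts, and oculomotor 6-month and 18-month replicate 1 were rich in choroid plexus transcripts. Counts below are also given without the arrays that stood apart or were rich in choroid plexus transcripts. The summed signal of 5 motor neuron markers was 1132 to 1516 on oculomotor arrays and 3148 to 4151 on cord arrays. That of 5 neuron markers was 25313 to 30129 on oculomotor arrays and 28246 to 41133 on cord arrays. Both tissues hold motor neurons, so these sums do not check the tissue labels.

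The main pattern was a lower level of these matrix transcripts in the oculomotor nucleus than in the spinal cord, at each age. On 13 of the 17 probe sets all 9 oculomotor arrays lay below all 9 cord arrays. For 7 genes (Col1a2, Col3a1, Col6a1, Dcn, Bgn, Lum and Ogn) this held on each of their probe sets. No share of all probe sets is given for this count over 9 arrays, so it is a description only. The 13 include the 2 probe sets left out of the tests, Col5a1 1369955_at and Ogn 1390450_a_at. Taken age by age, the 3 oculomotor arrays lay below the 3 cord arrays on 14, 14 and 13 of the 15 tested member probe sets. Of all 9482 tested probe sets 1937, 2099 and 1617 did so at 6, 18 and 30 months. Decorin, osteoglycin and the type I and III collagen chains had the largest differences on at least 1 probe set each, and the type V chains the smallest. The genes were not selected on this comparison, but the oculomotor 6- and 30-month and cord 6- and 18-month arrays that named Col1a1, Col1a2, Col3a1 and Col6a1 enter it, so it is not independent of the selection. The other 6 genes had not been named.

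**Figure D1:**
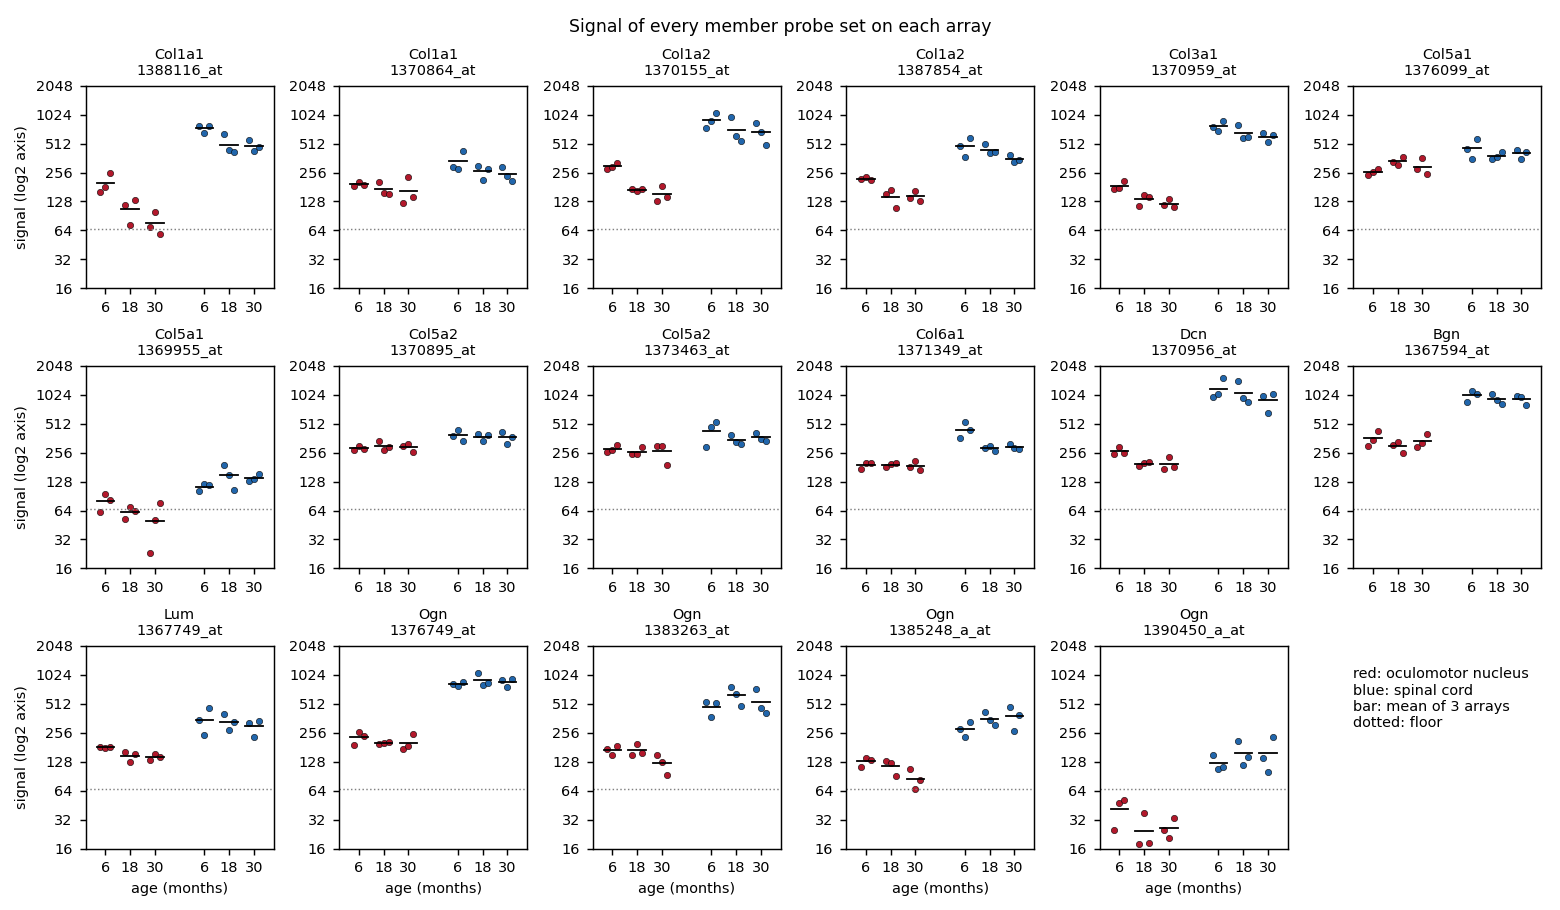
Signal on each array (log2 axis, arbitrary units) for all 17 member probe sets, with the 3 ages of the oculomotor nucleus in red and of the spinal cord in blue; each point is 1 array, each bar the mean of 3 arrays, and the dotted line the floor of 66.4. Red points lie wholly below blue points on 13 of the 17 probe sets.

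Col1a1, the alpha 1 chain of type I collagen, was measured by a probe set (1388116_at) with signals in the oculomotor nucleus of 159, 183 and 250 in the 6-month pools, 118, 73.7 and 131 in the 18-month pools, and 69.8, 99.5 and 59.3 in the 30-month pools. In the cord the same probe set gave 773, 654 and 779 in the 6-month pools, 648, 434 and 414 in the 18-month pools, and 560, 428 and 469 in the 30-month pools. The highest oculomotor array was thus below the lowest cord array. The log2 difference between oculomotor nucleus and cord was -1.92 ± 0.23 (SE, adjusted p = 5.55e-06) at 6 months and -2.22 ± 0.23 (adjusted p = 8.06e-07) at 18 months, by limma over all probe sets. At 30 months, where 1 of the 3 oculomotor arrays was at the floor, cord signal was at least 6.25-fold higher than oculomotor signal (adjusted p = 1.15e-07). The other Col1a1 probe set (1370864_at) showed a smaller difference, with signals of 124 to 230 on oculomotor arrays and 210 to 428 on cord arrays, and the groups overlapped at 30 months. Its log2 differences were -0.76 (adjusted p = 0.0149), -0.63 (adjusted p = 0.0393) and -0.62 (adjusted p = 0.0492) at the 3 ages, and the last was no longer called in 21 of the alternative settings. With the replicate number as a block its adjusted p at 30 months was 0.0627 over all arrays and 0.0396 with the block among the 30-month arrays only.

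Col1a2, the alpha 2 chain, had signals on 1370155_at in the oculomotor nucleus of 277, 295 and 324 in the 6-month pools, 174, 165 and 172 in the 18-month pools, and 129, 188 and 143 in the 30-month pools. Cord signals were 750, 884 and 1069 in the 6-month pools, 960, 620 and 545 in the 18-month pools, and 848, 668 and 494 in the 30-month pools, all above the oculomotor arrays. The log2 difference between the tissues was -1.58 ± 0.21 at 6 months, -2.01 ± 0.21 at 18 months and -2.11 ± 0.21 at 30 months (SE), with adjusted p values of 1.5e-05, 7.87e-07 and 5.63e-07 (limma). The gene's other probe set (1387854_at) gave -1.10, -1.65 and -1.31.

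Col3a1, the chain of type III collagen found with type I in soft tissue, had oculomotor signals of 174, 177 and 209 in the 6-month pools, 115, 150 and 142 in the 18-month pools, and 117, 136 and 111 in the 30-month pools. In the cord it had 755, 685 and 878 in the 6-month pools, 791, 591 and 604 in the 18-month pools, and 661, 531 and 628 in the 30-month pools. The highest oculomotor array, at 209, was below the lowest cord array, at 531. The tissue difference was -2.05 ± 0.15, -2.28 ± 0.15 and -2.32 ± 0.15 on the log2 scale at 6, 18 and 30 months, a cord signal 4.13, 4.85 and 5.00 times that of the oculomotor nucleus. The adjusted p values were 1.77e-08, 3.63e-09 and 3.16e-09 (limma), for a probe set that passed the filter only through its cord signal.

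The type V chains differed less. Col5a2 had 262 to 309 at 6 months on 1 probe set (1373463_at) in the oculomotor nucleus, against 291 to 533 in the cord, and these ranges overlapped. Its tissue differences were called at 6 months only, at -0.57 (adjusted p = 0.0407) on this probe set and -0.43 (adjusted p = 0.0254) on 1370895_at. At 18 and 30 months they were -0.39 and -0.52 on the first and -0.32 and -0.33 on the second, with adjusted p values between 0.0748 and 0.163 (limma). The 6-month calls were lost in 10 and 8 of the alternative settings.

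For Col5a1 the probe sets did not give the same account. On 1376099_at the oculomotor arrays had 243, 259 and 281 in the 6-month pools, 329, 304 and 372 in the 18-month pools, and 281, 361 and 244 in the 30-month pools, and the cord ranges were 354 to 568, 351 to 415 and 354 to 436 at these ages. The tissue difference was called at 6 months (-0.79 ± 0.17, adjusted p = 0.00161) and not at 18 (-0.18, adjusted p = 0.472) or 30 months (-0.46, adjusted p = 0.0554). The weaker probe set 1369955_at was fitted without the filter and gave -0.49 (adjusted p = 0.0911) at 6 months, -1.09 (adjusted p = 0.00104) at 18 months and -1.0 (adjusted p = 0.00242) at 30 months. Its oculomotor signals, 23.1 to 95.5, lay partly under the floor, so these differences are lower bounds in size.

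Col6a1 of type VI collagen had a narrow range in the oculomotor nucleus, with 173, 198 and 200 in the 6-month pools, 183, 193 and 197 in the 18-month pools, and 181, 209 and 170 in the 30-month pools. In the cord it had 366, 532 and 438 in the 6-month pools, 290, 303 and 263 in the 18-month pools, and 315, 287 and 277 in the 30-month pools. The tissue difference was -1.21 ± 0.14 at 6 months (adjusted p = 4.36e-06), -0.58 ± 0.14 at 18 months (adjusted p = 0.005) and -0.65 ± 0.14 at 30 months (adjusted p = 0.00248) by limma. The cord arrays at 6 months stood above all later cord arrays. Col6a1 was named for a lower cord level at 18 than at 6 months, so nothing is read from this. The larger tissue difference at 6 months rests on the same cord arrays. The oculomotor ranges overlapped between ages.

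Among the proteoglycans decorin differed most. Its signals in the oculomotor nucleus were 247, 290 and 255 in the 6-month pools, 188, 200 and 203 in the 18-month pools, and 172, 232 and 184 in the 30-month pools. Cord signals were 977, 1042 and 1538 in the 6-month pools, 1426, 950 and 856 in the 18-month pools, and 996, 666 and 1034 in the 30-month pools. The log2 difference was -2.14 ± 0.20, -2.42 ± 0.20 and -2.18 ± 0.20 at 6, 18 and 30 months (adjusted p = 2.96e-07, 5.85e-08 and 2.36e-07, limma), and the cord arrays spread more widely among themselves than the oculomotor arrays did.

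Biglycan, which like decorin binds transforming growth factor beta, had signals of 254 to 430 on the 9 oculomotor arrays and 804 to 1108 on the 9 cord arrays. Its differences were -1.49 ± 0.16, -1.63 ± 0.16 and -1.46 ± 0.16 (SE) at the 3 ages, with adjusted p values from 3.44e-07 to 1.76e-06 (limma). Lumican, best known from the cornea, had 127 to 184 on oculomotor arrays and 234 to 459 on cord arrays, a difference of -0.90, -1.17 and -1.03 with adjusted p values of 0.00276, 0.00024 and 0.00104 (limma).

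Osteoglycin, also called mimecan, was lower in the oculomotor nucleus on each of its 4 probe sets. On 1376749_at the oculomotor arrays had 192, 259 and 240 in the 6-month pools, 195, 202 and 207 in the 18-month pools, and 173, 186 and 249 in the 30-month pools. The cord arrays had 815, 781 and 870 in the 6-month pools, 1071, 797 and 845 in the 18-month pools, and 915, 772 and 929 in the 30-month pools. The difference was -1.85 ± 0.15, -2.15 ± 0.15 and -2.12 ± 0.15 at the 3 ages (adjusted p = 4.55e-08, 5.22e-09 and 7.53e-09, limma). On 1383263_at it was -1.48, -1.89 and -2.10, and on 1385248_a_at it was -1.12, -1.65 and -2.14. The dimmest, 1390450_a_at, was at or under the floor on all 9 oculomotor arrays and had 99.7 to 230 on cord arrays, so the cord was at least 1.84-, 2.29- and 2.22-fold higher at 6, 18 and 30 months.

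**Figure D2:**
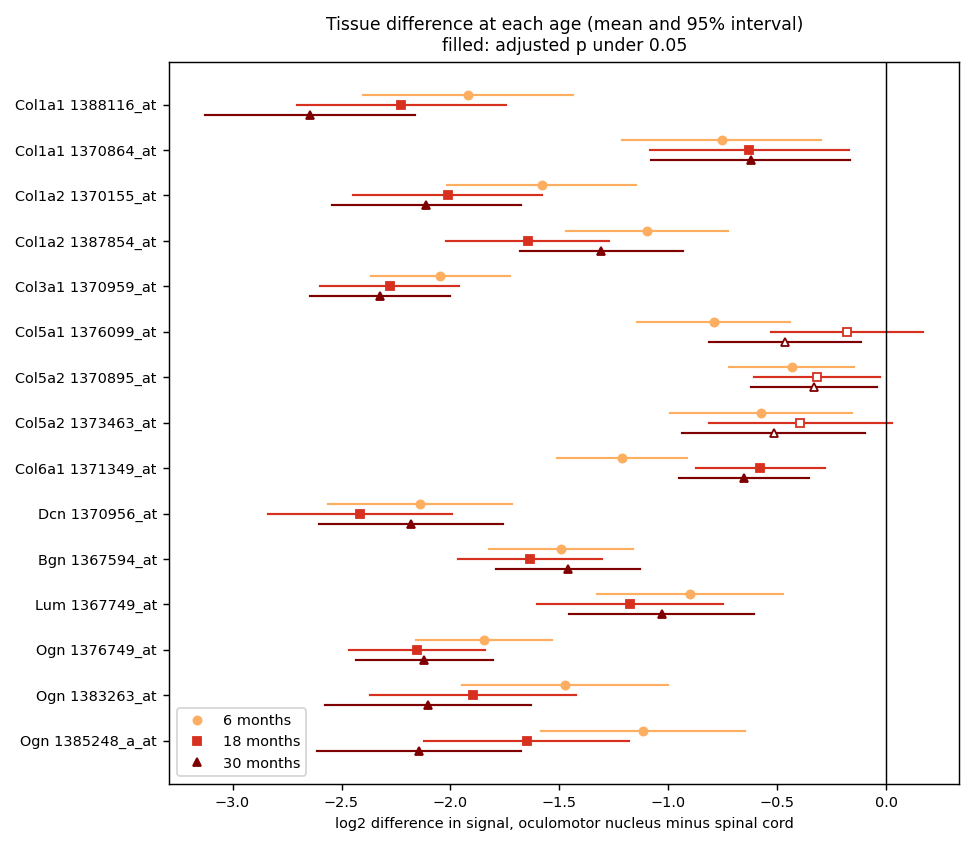
Log2 difference in signal, oculomotor nucleus minus spinal cord, for the 15 tested member probe sets at 6, 18 and 30 months; points are the differences, bars their 95% intervals, and filled points have an adjusted p under 0.05. All points lie left of 0, and the open points are those of Col5a1 and Col5a2 at 18 and 30 months.

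Over the 15 tested probe sets the call at an adjusted p under 0.05 was reached, always as lower in the oculomotor nucleus, by 15 at 6 months (all 10 genes), 12 at 18 months (8 genes) and 12 at 30 months (8 genes). Of all 9482 probe sets 26.1% were called in either direction and 13.4% as lower in the oculomotor nucleus at 6 months. At 18 months these shares were 26.2% and 13.9%, and at 30 months 21.0% and 11.3%. The members' median log2 difference was -1.21, -1.65 and -1.46 at the 3 ages, against 0.01 for all probe sets at each age. Of the 9 tested probe sets of the 6 genes not named earlier, 9, 6 and 6 were called. Because part of the members passed the filter only through the cord, the count was repeated on the 8 whose oculomotor mean passed it, of which 8, 5 and 5 were called. All 17 fitted without a filter gave 15, 13 and 13 calls, where 16.6%, 17.1% and 13.0% of all 15866 probe sets were called at 6, 18 and 30 months.

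Without the 4 arrays that stood apart 15, 12 and 11 of the 15 were called at 6, 18 and 30 months, beside 2872, 2674 and 1634 of all 9482 probe sets. Without the 3 cord arrays rich in muscle transcripts 1 cord array was left at 6 months, so no count of tissue calls is given. All tested member differences between the tissues stayed negative in that fit. Without the 2 oculomotor arrays rich in choroid plexus transcripts the counts were 12, 12 and 11, beside 1758, 1912 and 1787 of all 9482 probe sets. These comparisons of array signal are relative to the whole RNA of each tissue, and in bulk tissue fewer cells of a type and less RNA per cell cannot be told apart.

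Marker sums of several cell types, both those known to make this matrix and others, were also lower in the oculomotor nucleus. The summed signal of 13 of 14 meningeal and perivascular fibroblast markers was 4721 to 4945, 4105 to 4205 and 3479 to 3773 in the oculomotor nucleus at 6, 18 and 30 months, against 8075 to 10232, 8149 to 10106 and 7991 to 9556 in the cord. Of these markers Slc22a6, an organic anion transporter gene, was at the floor on all 3 oculomotor arrays of the youngest group. The sum of 3 of 5 Schwann cell markers was 1285 to 1526 over all oculomotor arrays and 3010 to 5387 over all cord arrays. Pmp22 carried most of it, with 1146 of the lowest oculomotor sum and 2734 of the lowest cord sum. Only 1 of the 3 passed the filter, and Prx and Egr2 lay near or under the floor on oculomotor arrays. The 5 endothelial markers measured summed to 2514 to 3024 on oculomotor arrays and 3683 to 4189 on cord arrays, and the 8 vascular mural markers to 1523 to 2164 and 1994 to 3302 in the same order. Skeletal muscle markers (9 genes) summed to 730 to 1477 on oculomotor arrays and 1185 to 11801 on cord arrays, and 2 to 4 of them were at the floor on all 3 arrays of each oculomotor group. The 3 blood markers measured summed to 4330 to 9499 on oculomotor arrays and 9651 to 19926 on cord arrays, and 6 microglia and macrophage markers to 2392 to 3786 and 3791 to 7179 in the same order. Choroid plexus marker sums (8 genes) overlapped, at 839 to 4683 on oculomotor arrays and 705 to 874 on cord arrays, and the high values were carried by transthyretin (Ttr), with 3720 and 1658 on 2 oculomotor arrays. The part of these cell types in the matrix difference was not tested.

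**Figure D3:**
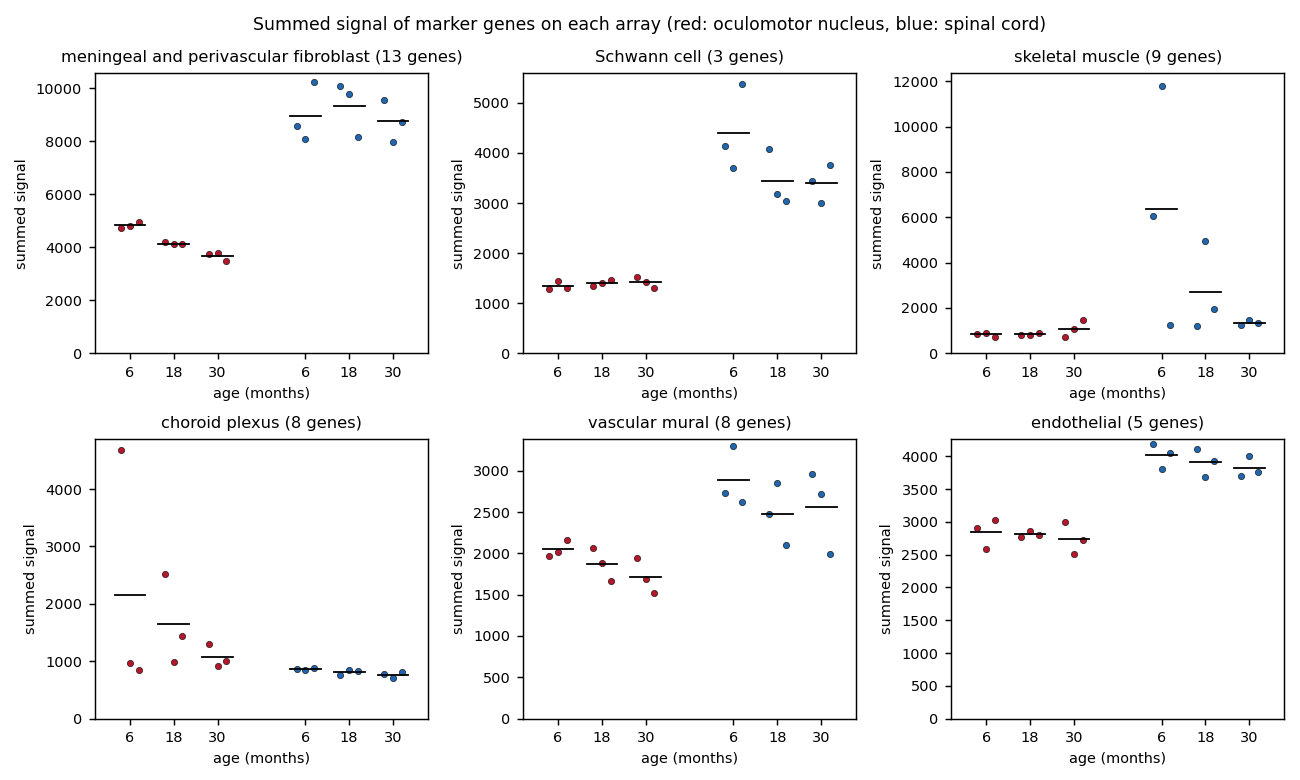
Summed signal (arbitrary units) of 6 marker gene lists on each array, by age in months, with the oculomotor nucleus in red and the spinal cord in blue; points are arrays and bars the means of 3 arrays. Fibroblast marker sums are at most 4945 in the oculomotor nucleus and at least 7991 in the cord, and 3 cord arrays stand out in the muscle panel.

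Other genes of the same matrix were taken from lists of the pathway. Genes were counted where called lower in the oculomotor nucleus at an adjusted p under 0.05 (limma). These counts are a description beside the 13.4%, 13.9% and 11.3% of all probe sets called lower at 6, 18 and 30 months. The list medians stand beside 0.01 for all. At 18 months 1 of 8 elastic and adhesive matrix genes tested was called higher. Of these genes, 6, 6 and 7 were called lower at 6, 18 and 30 months (list medians -0.62, -0.80 and -0.76 on the log2 scale). Among them fibronectin (Fn1), which collagen fibrils assemble on, differed by -1.10, -1.21 and -1.26 and the matrix Gla protein gene Mgp by -1.34, -1.54 and -1.18 on the log2 scale. Both other small leucine-rich proteoglycan genes tested, fibromodulin (Fmod, -1.67, -1.95 and -2.34) and Prelp (-0.79, -0.68 and -0.97), were called lower at all 3 ages. Of the 6 other collagen genes tested 3, 2 and 1 were called lower (medians -0.52, -0.20 and -0.14), so at 30 months their share was near that of all probe sets. Col12a1, a collagen that decorates type I fibrils, was called lower at all 3 ages (-0.94, -0.75 and -0.88).

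Of 11 genes tested that modify collagen, 2, 3 and 2 were called lower in the oculomotor nucleus at 6, 18 and 30 months (medians -0.30, -0.25 and -0.18). These shares were not far from those of all probe sets. Among the genes called was the lysyl hydroxylase Plod1 at each age (-0.52, -0.68 and -0.59). Sparc, which encodes a collagen-binding secreted protein, was higher at 18 months (0.37, adjusted p = 0.0424, limma). The collagen chaperone Serpinh1 was lower at 30 months (-0.56, adjusted p = 0.0074). Of 5 breakdown genes 3, 4 and 4 were called lower (medians -0.88, -0.69 and -0.54), led by the metalloproteinase inhibitor Timp1 (-2.18, -2.49 and -1.95). The gelatinase Mmp2 was lower at all 3 ages (-0.88, -0.69 and -0.52). Of 4 matrix receptor genes 4, 3 and 4 were called lower (medians -0.92, -1.16 and -1.01), including the collagen receptor Ddr2 (-0.88, -1.21 and -0.89). Of 8 genes of transforming growth factor beta signalling 4, 4 and 3 were called lower (medians -0.35, -0.44 and -0.34), with the matricellular target Ccn2 at -0.87, -1.08 and -0.94.

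The second question was how the 10 genes behaved with age within a tissue. All age comparisons with 6 months share the same 3 arrays of that tissue. In the oculomotor nucleus no member was called at 18 against 6 months. The lowest adjusted p was 0.811 (limma), and 5 of the 15 probe sets, like 321 of all 9482, had an unadjusted p under 0.05. The share of all probe sets called was 0.0%.

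At 18 against 6 months the log2 difference was -0.89 ± 0.23 for Col1a1 (1388116_at), -0.81 ± 0.21 and -0.64 ± 0.18 for the Col1a2 probe sets, -0.46 ± 0.15 for Col3a1 and -0.42 ± 0.20 for Dcn (SE). On these and on Lum (-0.30), 6 of 15 probe sets, all 18-month arrays lay below all 6-month arrays, as on 7.26% of all probe sets. The 6-month arrays are among those that named Col1a1, Col1a2 and Col3a1, which supply 4 of the 6, so nothing is read from that share. The other Col1a1 probe set (1370864_at) overlapped, with 203, 158 and 152 at 18 months against 187, 206 and 191 at 6 months (-0.20). Of the 3 tested probe sets with a positive difference, Col5a2 1370895_at (0.08) and Col6a1 (0.01) lay near 0, and Col5a1 1376099_at had 329, 304 and 372 at 18 months against 243, 259 and 281 at 6 months (0.36, adjusted p = 1.00, limma). The weaker Col5a1 probe set 1369955_at, fitted without the filter, gave -0.26, with 5 of its 9 oculomotor arrays at or under the floor.

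At 30 against 6 months, one of the comparisons that chose the genes, the same transcripts had the lowest values. Col1a1 signal on 1388116_at was 69.8, 99.5 and 59.3 at 30 months against 159, 183 and 250 at 6 months, at least 2.51-fold higher at 6 months since 1 array was at the floor. The differences were -0.98 and -0.62 for Col1a2, -0.62 for Col3a1, -0.44 for Dcn, -0.33 for Lum and -0.62 for the Ogn probe set 1385248_a_at. On the brighter Ogn probe set 1376749_at the ages overlapped, with 173, 186 and 249 at 30 months against 192, 259 and 240 at 6 months. On Ogn 1383263_at the signals were 149, 127 and 92.7 against 172, 150 and 188. Of the members 1 (Col1a1), and of all probe sets 0.211%, passed the threshold, a count that the choice of genes on this comparison fixes in part. Col5a2 (0.03 and -0.12), Col6a1 (-0.03) and Bgn (-0.09) differed least. The other Col1a1 probe set gave -0.29 with overlapping arrays.

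Between 18 and 30 months in the oculomotor nucleus no member was called, at a lowest adjusted p of 0.976 (limma) and 1 unadjusted p under 0.05, and 0.0105% of all probe sets were called. The differences ran from -0.47 (Ogn 1383263_at) to 0.17 (Bgn), with Col1a1 at -0.44 and Col1a2 at -0.17 and 0.02. The arrays did not overlap for 1 probe set, against 4.29% of all.

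**Figure D4:**
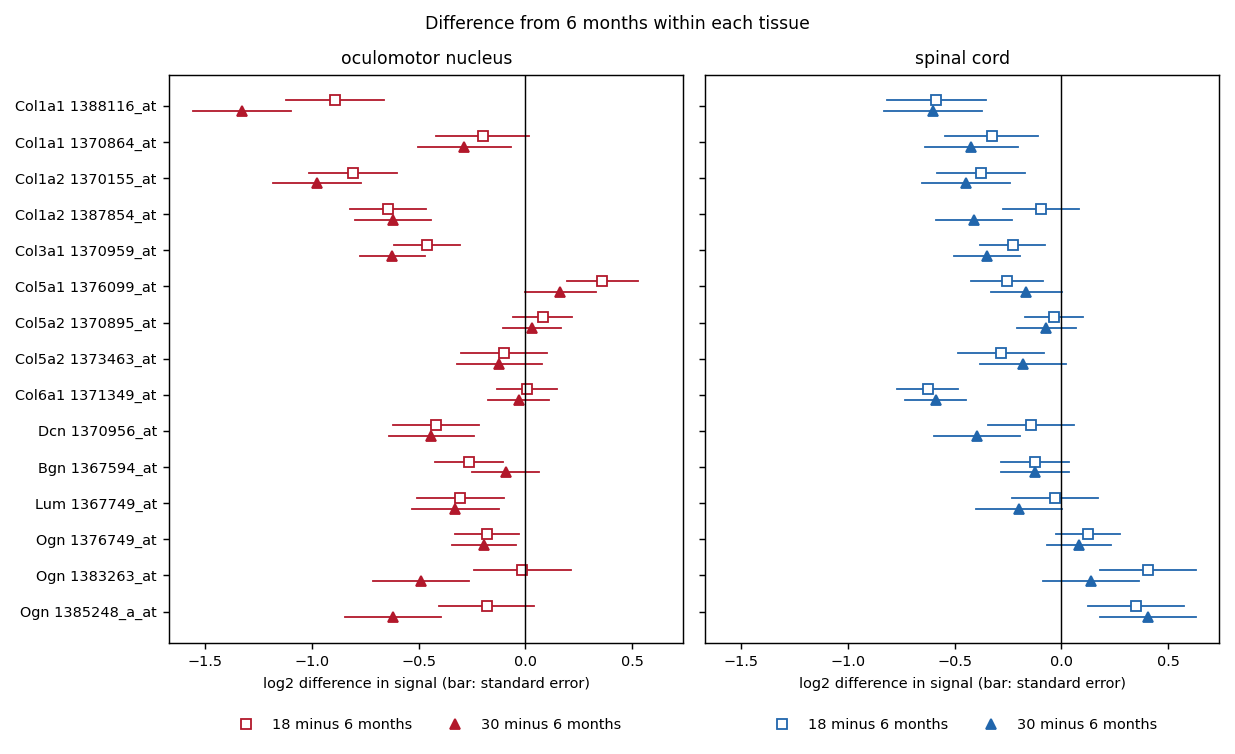
Log2 difference in signal from 6 months for the 15 tested member probe sets, at 18 months (open squares) and 30 months (filled triangles), in the oculomotor nucleus on the left and the spinal cord on the right; bars are standard errors. Col1a1 (1388116_at) and Col1a2 (1370155_at) lie furthest left in the oculomotor nucleus and Col6a1 and Col1a1 (1388116_at) in the cord, while Ogn lies right of 0 in the cord.

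In the spinal cord Col6a1 had been named for its age difference. At 18 against 6 months, the comparison that chose it, it had 290, 303 and 263 against 366, 532 and 438 (-0.63 ± 0.14, SE), and it was the 1 member to pass the threshold, as did 0.728% of all probe sets, which again follows in part from the choice. Col1a1 (1388116_at) differed by -0.58. Col6a1 no longer passed when any 1 of 14 of the 18 arrays was left out. At 30 against 6 months Col6a1 had 315, 287 and 277 against 366, 532 and 438, a difference of -0.59 ± 0.14 that was not called (adjusted p = 0.0934, limma). This comparison uses the same 6-month arrays that named Col6a1 and is not independent of that choice.

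No member was called in the cord at 30 against 6 months, where 0.221% of all probe sets were, and 5 of 15 had an unadjusted p under 0.05. Col1a1 (-0.60, adjusted p = 0.338), Col1a2 (-0.45 and -0.41) and Col3a1 (-0.35, adjusted p = 0.416) were negative, and 3 probe sets, Col6a1 among them, did not overlap, as for 6.38% of all. Osteoglycin gave positive values on its 3 tested probe sets, 0.08, 0.14 and 0.41, with adjusted p values from 0.549 to 0.899 (limma). Between 18 and 30 months no member was called, 0.0105% of all probe sets were, and no member had an unadjusted p under 0.05. Here 1 member, Col1a2 (1387854_at, -0.31), did not overlap, against 3.35% of all.

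Whether the tissues differed in their change was tested between 18 and 30 months. No member was called by limma, 0.0% of all probe sets were, and no member had an unadjusted p under 0.05. The differences ran from -0.49 (Ogn 1385248_a_at) to 0.34 (Col1a2 1387854_at). For 30 against 6 months the change in the oculomotor nucleus minus that in the cord is given without a test. It was -0.73 for Col1a1 (1388116_at), -1.03 for Ogn (1385248_a_at) and 0.56 for Col6a1. Of the 15 tested probe sets 9 had a negative value, and the median was -0.13. Probe sets of a gene differed here. On Col1a1 1370864_at the tissue difference was -0.76 at 6 and -0.62 at 30 months, a change the other way. On Ogn 1376749_at it was -1.85 and -2.12, and on Ogn 1383263_at -1.48 and -2.10. An age difference seen in 1 tissue alone is thus not shown to be particular to it.

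Other measures also differed with age in the oculomotor nucleus. The fibroblast marker sums given above did not overlap between any 2 ages there, while in the cord they did. Bright genes weigh most in such a sum. Igf2 had 1251, 1290 and 959 at 6 months and 534, 595 and 462 at 30 months, while Pdgfra had 572, 436 and 617 and then 616, 569 and 690. Of the 10 fibroblast markers tested, 8 had a negative difference at 18 and at 30 against 6 months. By limma 0 were called at 18 and 2 at 30 against 6 months. The 3′ to 5′ signal ratio of the hexokinase control probe sets in the oculomotor nucleus was 1.57 to 1.64 in the 6-month pools, 1.75 to 1.89 in the 18-month pools and 1.76 to 1.91 in the 30-month pools. The same ratio overlapped between ages for beta-actin (1.25 to 1.36, 1.22 to 1.49 and 1.31 to 1.54) and for GAPDH (0.991 to 1.02, 1.01 to 1.02 and 1.00 to 1.09). Microglia and macrophage markers (6 genes) summed to 2392 to 2581, 2908 to 2977 and 3338 to 3786 at the same ages. The part of each in the collagen values was not tested. No gene of the pathway lists was called in the 4 age comparisons within a tissue that were tested, and the median over 11 collagen-modifying genes was 0.01 in the oculomotor nucleus at 18 against 6 months.

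Within groups the members moved partly together. Across the 9 arrays of a tissue, centred on each age's mean, the 45 pairs of members had a median correlation of 0.32 in the oculomotor nucleus (-0.35 to 0.84) and 0.37 in the cord (-0.45 to 0.95). These are descriptions over arrays that share normalisation. In the cord, 30-month replicate 1 was above its group mean for 10 of 10 genes and 18-month replicate 1 for 9, and in the oculomotor nucleus 6-month and 30-month replicate 1 were above it for 1 each.

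The genes whose signal was most like the members' mean in both tissues, by the smaller of the 2 within-tissue correlations over 9 arrays, were LOC100909490 (0.74), Tmem41a (0.71), Trappc1 (0.69), Sqle (0.68), Map4k2 (0.65), Col4a1 (0.65), Fstl1 (0.65) and Hcrtr2 (0.64). This likeness was taken within each tissue and leaves out the tissue difference. LOC100909490, Tmem41a, Map4k2 and Hcrtr2 had higher oculomotor than cord means at each age, unlike the members. At 6 months these were 329 against 272, 704 against 475, 427 against 399 and 318 against 183. Only Col4a1 and Fstl1 had lower oculomotor means at each age. For Col4a1, a basement membrane collagen chain, the oculomotor means were 310 ± 12.6, 291 ± 55.6 and 274 ± 110 at 6, 18 and 30 months, and the cord means 400 ± 64.1, 324 ± 54.3 and 290 ± 64.6 (SD, n = 3). Fstl1, which encodes a secreted glycoprotein, had oculomotor means of 375 ± 6.1, 290 ± 47.7 and 304 ± 17.5 and cord means of 795 ± 29.2, 658 ± 80.9 and 670.4 ± 66.2 (SD, n = 3).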

How the data were processed

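Rat RA230 arrays were hybridised with RNA pooled from 4 animals each (18 arrays). The authors deposited linear signal intensities from MAS 5.0, per the submitters' processing notes and the design text; the label field names Cy3 and Cy5, while the design text describes biotinylated cRNA. The deposited arrays already shared a trimmed mean of about 500.1. Intensities were rescaled to a common 2% trimmed mean, floored at the pooled 20th percentile, logged (log2), and filtered at the pooled 40th percentile of mean log2 signal. A 6-group limma 3.58.1 model (R 4.3.3, lmFit and eBayes with trend, 12 residual degrees of freedom) was fitted to all 18 arrays, with Benjamini-Hochberg adjustment over 9482 probe sets. The number of arrays, 3 per group, limits the precision. The script was tested on simulated data.

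Symbols came from the platform annotation, updated by Entrez ID: 12789 probe sets had 1 symbol, 312 several and 2822 none. All member probe sets are shown; pathway genes are named by smallest p, at most 4 per list and comparison, or 2 where none was called; alike genes are the 8 with the highest correlation. The members, gene lists and tests were chosen with earlier results of these data known. Deviations from group means of same-numbered arrays correlated above 0.1 for all 3 pairs in 1 of 15 pairs of groups. These were oculomotor nucleus and cord at 30 months (0.12 to 0.50), where both replicates 3 stood apart. The labels state no pairing. Oculomotor 30-month replicate 2 correlated more with cord 30-month replicate 1 (0.29) than with cord 30-month replicate 2 (0.23). Alternatives covered normalisation, floor, filter, covariates, probe choice, call rule and leaving out each array. Promoters of 4 genes and all protein sequences are not used here.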

Additional observations from a re-analysis of the deposited data

How the results depend on the processing

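No called member difference changed sign under any alternative run. Under all alternatives that tested them, 12 of the 15 tissue calls at 6 months, 10 of 12 at 18 months and 10 of 12 at 30 months were kept; the others are Col1a1 1370864_at, both Col5a2 probe sets and Col6a1. Single arrays ended the 6-month calls of Col1a1 1370864_at (without cord 6-month replicate 3), Col5a2 1370895_at (without oculomotor 6-month replicate 1 or 3 or cord replicate 2) and Col5a2 1373463_at (without any oculomotor replicate or cord replicate 2 or 3 of that age), the 18-month call of Col1a1 1370864_at (without oculomotor 18-month replicate 2 or 3 or cord replicate 1 or 3), and its 30-month call (13 of the 18 arrays). A stricter filter kept 10 member probe sets and gave 7 calls at 18 months and 7 at 30 months, beside 2180 and 1754 of all 7901 probe sets. Leaving out 1 array gave 13 to 15 calls at the youngest age, 11 to 12 at the middle age and 11 to 13 at the oldest. Of all 9482 probe sets 1834 to 2620, 1971 to 2622 and 1521 to 2125 were then called. The next values, of the 2 comparisons that named genes, are a description only and no sign of stability. For 30 against 6 months in the oculomotor nucleus the 1 call became 2 with quantile normalization, median centring, array weights, 1 probe set per gene, the 4 outlying arrays treated as a block, or the study's kind of rule (all pairwise comparisons 1 way and mean fold over 1.70). It became 0 with no filter, the stricter filter, without those 4 arrays, or without the 3 muscle-rich cord arrays, and ranged from 0 to 2 when 1 array was left out; it was lost without oculomotor 6-month replicate 2 or 3 or 30-month replicate 3. The study's kind of rule gave 2 members for 18 against 6 months in the oculomotor nucleus, where limma called 0. Of all 9482 probe sets it gave 5. The 6-month arrays are among those that named genes, so nothing is read from this count. In the cord the 1 call at 18 against 6 months became 0 with no filter, the stricter filter, each tissue fitted alone, array weights, the muscle score as a covariate, the study's kind of rule, without the 3 muscle-rich cord arrays or without the 2 choroid-rich oculomotor arrays, and ranged from 0 to 1 when 1 array was left out. At 30 against 6 months in the cord the 0 calls became 1 with the 4 arrays as a block and 0 to 1 when 1 array was left out (1 without 6-month replicate 1). The remaining age comparisons gave 0 throughout, and so did the tissue difference between 18 and 30 months. The causes were not tested. The arrays that stand apart and those rich in muscle or choroid plexus were chosen after seeing the data.

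With the replicate number as a block over all arrays, 14, 11 and 11 member probe sets were called between the tissues at 6, 18 and 30 months and 0 in the cord at 18 against 6 months. Of all 9482 probe sets 2477, 2525 and 2026 were called between the tissues, and 51 in that cord comparison. A block among the 30-month arrays only was added after seeing the data, because all 3 same-numbered pairs of the tissues correlated above 0.1 at that age. It rests on these correlations and not on a stated pairing, and it gave 12 calls, as without it. Of all 9482 probe sets 2250 were called with it and 1988 without.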
